A study of Mus musculus with 16 samples.

Results

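The 10 genes described here are Mthfd2 and 9 genes read beside it: the serine, glycine and one-carbon enzymes Shmt2, Phgdh, Psat1 and Psph, the asparagine synthetase gene Asns, and the stress-response regulators Atf4, Atf5, Ddit3 and Trib3. Mthfd2 was selected on its higher level in astrocyte ribosome-bound RNA after swim stress, and the other 9 were chosen by their known link to the same pathway. They were found by gene symbol in all 16 libraries, 10 of 24060 genes in all. The question was whether the higher Mthfd2 level came with a wider set of targets of the transcription factor ATF4. Because the list was built around that value, the Mthfd2 values in IP are given as a description with no test, and counts of members that passed a test are over the other 9.

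All mice were C57BL/6J animals of the genotype Aldh1l1CreERT2-RiboTag, 3 months old, and all, controls included, received tamoxifen. Tamoxifen switches on Cre under the Aldh1l1 promoter, which is active in astrocytes, and Cre then lets those cells make the ribosomal protein Rpl22 with an HA tag. Ribosomes with their mRNA were pulled from somatosensory cortex lysate with an antibody against HA (IP), and RNA of the whole cleared lysate was kept as INPUT. Stressed mice swam for 20 min and then spent 90 min in the home cage, whereas naïve mice stayed in the home cage throughout. Each fraction of each condition had 4 libraries, 16 in all, and replicates are numbered by library from 1 to 16. The methods name both male and female mice, but the sex of each mouse, and which IP and INPUT libraries share a mouse, are not given for the samples. Tamoxifen ended 2 weeks before the experiment according to the methods, whereas the labels put the interval at 1 month.

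Serine made from a glycolytic intermediate by PHGDH, PSAT1 and PSPH is split by SHMT2 inside mitochondria into glycine and a one-carbon unit on folate, and MTHFD2 oxidises that folate further so that formate can leave for purine and thymidylate synthesis. ATF4 is made when phosphorylation of the initiation factor eIF2 lowers general translation, as after amino acid shortage or unfolded protein, and it raises transcription of most of these enzymes, of Asns, Atf5, Ddit3 and Trib3. In the adult brain PHGDH and the serine pathway are known mainly from astrocytes, whose L-serine is used by neurons. Since ATF4 is controlled largely by translation of its mRNA, the RNA levels here do not measure the amount of ATF4 protein.

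ATF4 binds DNA with C/EBP partners at a composite element whose core can be written TGATGNAA, so the promoters of the members were read for it. RefSeq promoter windows (build GRCm38.p6, 250 bases before to 50 bases after each start) were found for 10 of 10 members, and both strands were searched. The core was present in 2 members, Asns and Trib3 (2 of the 12 windows of members), and in 3.97% of all 32851 windows. It was also present in 18 of the 97 other pathway genes with a window, or 16.5% of their 109 windows. Among these genes were the cystine transporter gene Slc7a11 and the endoplasmic reticulum stress gene Herpud1. The cyclic AMP response element TGACGTCA (1.79% of all windows) and the E-box CACGTG (7.15% of all windows) were found in 0 of the 10 members. Among the 97 other pathway genes the E-box was found in 17 (15.6% of windows), nearly as many as the core, and TGACGTCA in 1 (0.917% of windows). These letter matches do not show binding. The windows below are printed because they hold the core, which is in capitals and reads as its reverse complement where the match is on the other strand.
Asns, chr6:7693214-7693243, minus strand: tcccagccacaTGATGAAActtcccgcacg
Trib3, chr2:152344028-152344057, minus strand: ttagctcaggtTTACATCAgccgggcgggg
Slc7a11, chr3:50443661-50443690, minus strand: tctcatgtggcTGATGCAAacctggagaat
Herpud1, chr8:94386306-94386335, plus strand: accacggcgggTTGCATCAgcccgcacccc
The core lay 23 bases before the start in Asns, 66 before it in Slc7a11 and 112 before it in Herpud1, whereas in Trib3 it began 14 bases after it. Slc7a11 had a second match, 47 bases before the start, which is not in the printed bases. The 250 bases before the RefSeq start of Mthfd2 are printed because Mthfd2 is the gene the list was built on. They hold none of the 3 motifs, so nothing is in capitals, and 52.4% of the bases are G or C. GENCODE M21 extends the gene further upstream, to 83325908, and other starts are not covered by this window.
Mthfd2, chr6:83317605-83317854, minus strand: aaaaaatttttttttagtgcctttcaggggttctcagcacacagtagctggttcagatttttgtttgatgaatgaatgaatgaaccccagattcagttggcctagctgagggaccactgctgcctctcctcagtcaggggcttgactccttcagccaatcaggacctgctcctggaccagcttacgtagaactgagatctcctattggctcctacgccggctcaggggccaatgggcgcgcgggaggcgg

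Depth ran from 16392876 to 25814364 reads on genes per library, so that 3 reads, taken as the limit of detection, were at most 0.183 CPM, the count of reads on a gene per 1000000 reads on all genes. IP libraries gave 18.1 to 19.6% of their reads to their 10 most abundant genes, against 3.65 to 3.92% in INPUT, so IP and INPUT are compared as shares of unlike libraries. The IP matched its label for astrocytes, since all 8 astrocyte markers were higher in naïve IP than in naïve INPUT. Their summed level was 91824 to 96075 CPM against 5945 to 6324 CPM. The 7 neuronal markers together had 439 to 571 CPM in naïve IP and 361 to 515 CPM in stress IP, against 10035 to 11711 CPM over both INPUT groups. Oligodendrocyte and microglial sums were also lower in naïve IP, although 2 of the 7 oligodendrocyte markers were higher there. The 6 endothelial and mural markers together had 142 to 167 CPM in naïve IP against 90.6 to 119 CPM in naïve INPUT. Of these 6, 1 was higher in naïve IP. No tested marker of astrocytes, neurons, oligodendrocytes, microglia, vessels or choroid plexus passed the test of stress in either fraction. In IP 5 of the 6 microglial, 4 of the 6 vessel and 2 of the 4 choroid plexus markers were tested. The summed choroid plexus markers ran from 2.60 to 123 CPM in naïve IP and from 1.33 to 8.56 CPM in stress IP. One library, naïve IP replicate 11, was closer to the stress libraries than the other naïve IP libraries were for Mthfd2 and several genes below. Differences are also given without it where that changes a result. Since it was picked on those values, these differences are descriptions.

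Mthfd2 (chromosome 6 of GRCm38, 83305691 to 83325908, minus strand) encodes the mitochondrial enzyme that oxidises methylene-tetrahydrofolate. In naïve IP its level was 2.01, 1.57, 3.68 and 1.67 CPM in replicates 2, 8, 11 and 13, from 35 to 94 reads. In stress IP it was 8.12, 7.15, 6.16 and 5.18 CPM in replicates 4, 5, 6 and 15, from 129 to 182 reads. All 4 stress values lay above all 4 naïve values, and replicate 11 was the highest naïve library. The means were 2.23 ± 0.99 and 6.65 ± 1.26 CPM (SD, n = 4 libraries each), a difference of 1.60 on the log2(CPM + 0.1) scale (standard error 0.25), which is 3.03-fold. The difference was 1.86 without naïve replicate 11 and 1.46 to 1.86 over the 8 ways of leaving out 1 IP library. This is the value the list was built on, so no test is attached to it.

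In whole cortex RNA, Mthfd2 had 2.88, 3.30, 2.89 and 4.22 CPM in naïve INPUT (replicates 3, 7, 14 and 16) and 4.51, 3.76, 4.06 and 4.52 CPM in stress INPUT (replicates 1, 9, 10 and 12). The groups overlapped, since naïve replicate 16 was above stress replicates 9 and 10. The difference was 0.35 on the log2 scale (95% interval −0.00 to 0.70) and did not pass the test (limma, adjusted p = 0.98, unadjusted p = 0.051). In bulk RNA of this kind, fewer cells of a type and less RNA per cell cannot be told apart. The difference in IP exceeded that in INPUT by 1.25 on the log2 scale (standard error 0.31), and by 1.12 to 1.51 with any 1 of the 16 libraries left out, again as a description.

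**Figure D1:**
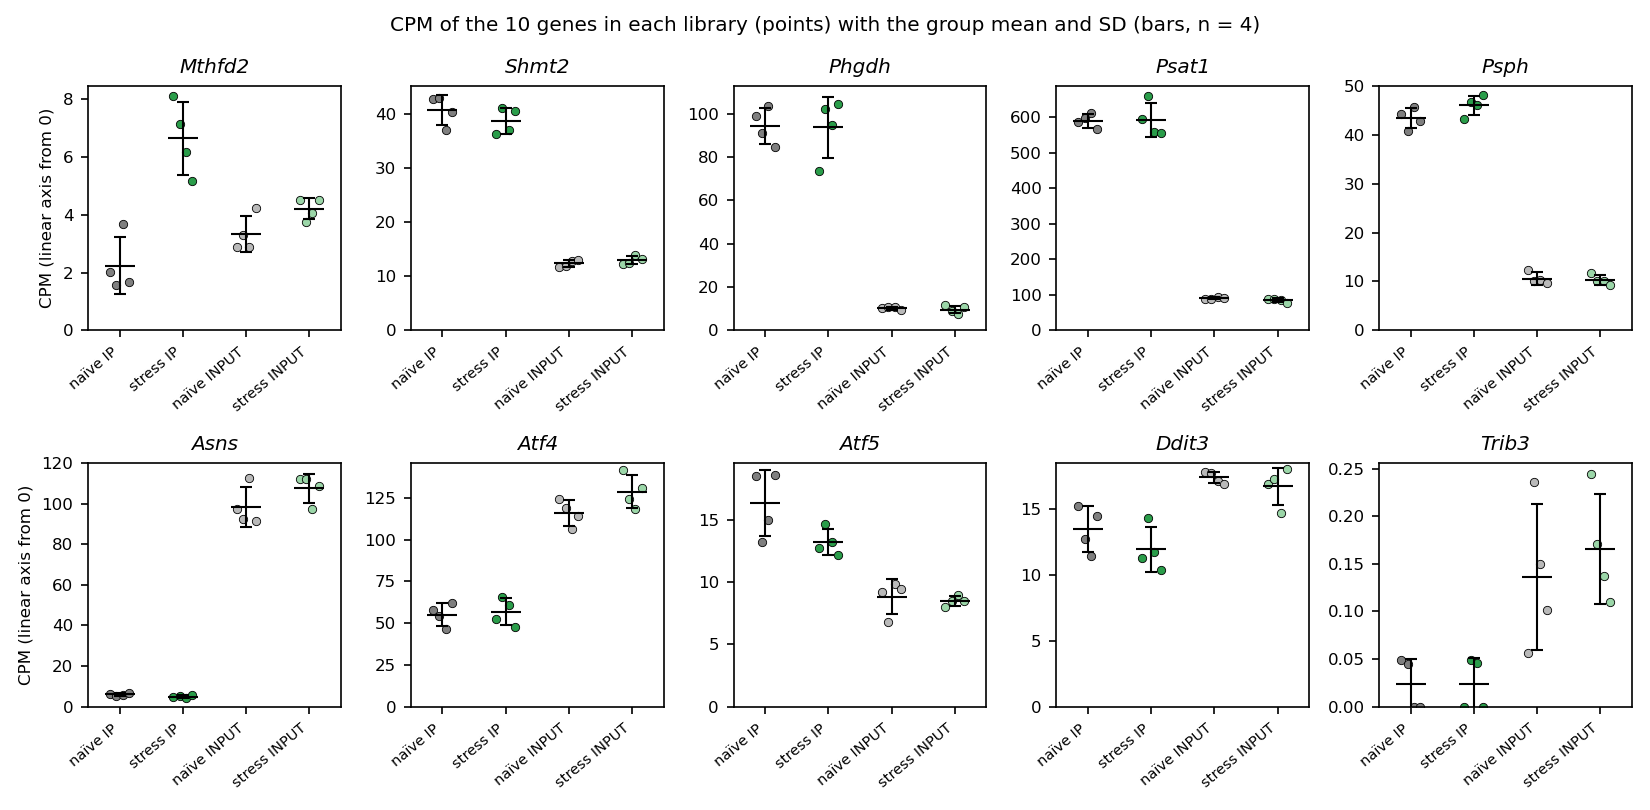
Each panel plots 1 gene, with CPM on a linear axis from 0, 1 point per library in the 4 groups, and a bar for the mean with whiskers for the SD (n = 4). Mthfd2 has 5.18 to 8.12 CPM in stress IP against 1.57 to 3.68 CPM in naïve IP, whereas the naïve and stress points of the other 9 genes overlap in both fractions.

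None of the other members passed the test of stress in astrocyte ribosome-bound RNA. Of the other 9 members, 8 had a mean above 1 CPM in the IP libraries and were tested, and 0 passed (limma, Benjamini-Hochberg adjusted p under 0.05 over 12501 genes, of which 0.44% passed). At an unadjusted p under 0.05 there was 1 member, Atf5, and it was lower after stress. Naïve and stress values overlapped in all 9, the untested Trib3 included. Among all genes tested 5% had groups that did not overlap, so 0 of 9 is near that share. The median difference of the 8 was −0.05, against −0.00 for all genes tested.

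The mean levels of the 3 enzymes that make serine differed little between naïve and stress IP. Phgdh (chromosome 3, 98313170 to 98339990), the first step, had 98.8, 91.1, 103 and 84.6 CPM in naïve IP and 73.6, 102, 94.6 and 104 CPM in stress IP. Both the lowest and the highest of these 8 values were stress libraries. The difference was −0.02 (95% interval −0.25 to 0.21, adjusted p = 0.97 from limma). Psat1 (chromosome 19, 15904678 to 15947337), the transaminase of the second step, had 587, 598, 613 and 566 CPM in naïve IP and 595, 659, 560 and 557 CPM in stress IP, so the stress libraries lay on both sides of the naïve ones. Its difference was 0.00 (95% interval −0.14 to 0.14, adjusted p = 1.00 from limma). Psph (chromosome 5, 129765558 to 129787449), the phosphatase that releases serine, had 44.3, 40.9, 45.7 and 43.0 CPM in naïve IP and 43.3, 46.7, 46.1 and 48.1 CPM in stress IP. In Psph 3 of the 4 stress values were above every naïve value, with a difference of 0.08 (95% interval −0.06 to 0.22, adjusted p = 0.79 from limma).

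Shmt2 (chromosome 10, 127517123 to 127522444) encodes the mitochondrial hydroxymethyltransferase that hands one-carbon units to MTHFD2. It had 42.8, 43.0, 37.0 and 40.2 CPM in naïve IP and 36.3, 41.1, 37.0 and 40.5 CPM in stress IP. The naïve and stress values were interleaved, and the difference was −0.07 (95% interval −0.24 to 0.09, adjusted p = 0.84 from limma). Mthfd2, the enzyme of the next step, had 1.60, but the list was chosen on that value, so the 2 genes were not compared by a test.

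Asns (chromosome 6, 7675169 to 7693254) encodes the enzyme that makes asparagine and carries the core shown above near its start. It had 6.46, 5.15, 5.84 and 6.82 CPM in naïve IP and 4.64, 5.33, 4.38 and 5.67 CPM in stress IP. The groups overlapped, with the 2 lowest values in stress libraries and the 3 highest in naïve ones, and the difference was −0.27 (95% interval −0.57 to 0.03, adjusted p = 0.66 from limma). In IP the summed neuronal markers were also lower in stress (mean 421 CPM) than in naïve libraries (mean 497 CPM), and their part in the Asns value was not tested.

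None of the regulators passed the test. Atf4 (chromosome 15, 80255184 to 80257541) had 57.6, 54.1, 46.3 and 62.3 CPM in naïve IP and 52.4, 65.9, 60.7 and 48.0 CPM in stress IP. These values overlapped throughout, and the difference was 0.04 (95% interval −0.20 to 0.28, adjusted p = 0.95 from limma). Atf5 (chromosome 7, 44812256 to 44816658), a related factor that ATF4 induces, had 18.5, 13.3, 15.0 and 18.6 CPM in naïve IP and 12.7, 14.6, 13.2 and 12.2 CPM in stress IP. Its difference was −0.29 (95% interval −0.56 to −0.03), with an unadjusted p of 0.031 and an adjusted p of 0.55 from limma. Ddit3 (chromosome 10, 127290774 to 127296288), which encodes the C/EBP-family factor CHOP, had 15.2, 12.7, 11.4 and 14.4 CPM in naïve IP and 11.3, 14.3, 11.7 and 10.3 CPM in stress IP. The difference of Ddit3 was −0.18 (95% interval −0.45 to 0.10, adjusted p = 0.77 from limma).

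Trib3 (chromosome 2, 152337422 to 152344032), a pseudokinase gene that CHOP and ATF4 induce and that carries the core shown above, was at the limit of detection. It had 1 read in each of 2 naïve IP libraries and in each of 2 stress IP libraries, and 0 reads in the other 4, which allow up to 3 reads each. In INPUT it had 1 to 4 reads per naïve library and 2 to 4 reads per stress library, at most 0.244 CPM. It did not reach the mean of 1 CPM in any comparison and was not tested. A fall, or a small rise, from so low a level was not detectable at this depth. No stress IP library had more than 1 read of Trib3, where 3 reads were at most 0.148 CPM, so no rise above that limit was seen in IP.

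**Figure D2:**
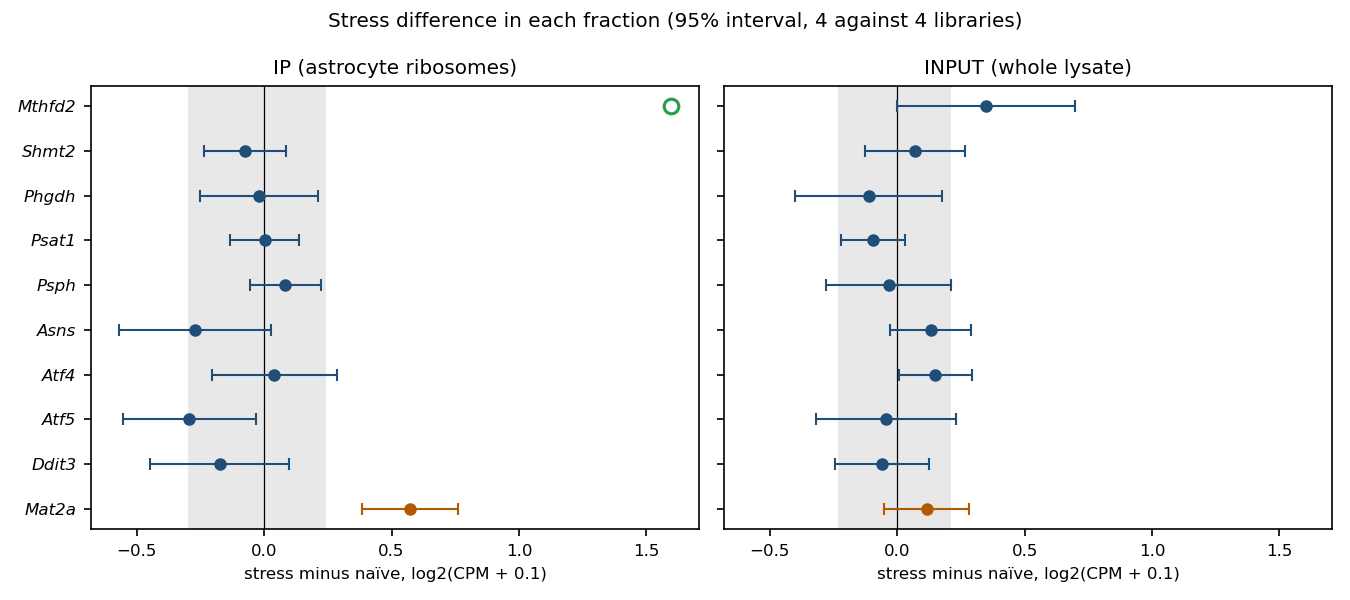
Points give the stress minus naïve difference on the log2(CPM + 0.1) scale in IP (left) and INPUT (right), with 95% intervals (4 against 4 libraries), and the grey band holds 90% of all genes tested. Mthfd2 in IP is an open point at 1.60 with no interval because the list was chosen on it, Mat2a (orange) lies at 0.57 in IP, and the intervals of the other genes in IP end at 0.28 or lower.

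In whole cortex RNA no member passed the test of stress. All 9 tested members, Mthfd2 included, stayed above the threshold of 0.05 (limma, adjusted p of 0.97 to 1.00), where 0.0442% of 13577 genes passed, and only Atf4 had an unadjusted p under 0.05. Groups that did not overlap were found in 0 of the 10 members and in 2.87% of all genes tested. Atf4 had 124, 119, 106 and 114 CPM in naïve INPUT and 141, 124, 118 and 131 CPM in stress INPUT, a difference of 0.15 (95% interval 0.01 to 0.29, unadjusted p = 0.043 and adjusted p = 0.97 from limma). Asns had 97.2, 92.2, 113 and 91.6 CPM in naïve INPUT and 112, 112, 97.2 and 109 CPM in stress INPUT, a difference of 0.13 (95% interval −0.03 to 0.29, adjusted p = 0.99 from limma). The highest Asns value was naïve replicate 14, so the higher stress mean did not separate the groups. The differences of Phgdh, Psat1, Psph, Shmt2, Atf5 and Ddit3 lay between −0.11 and 0.07.

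The stress differences in IP and INPUT were also compared with each other. None of the 8 other members tested passed that test (limma on all 16 libraries, 13341 genes, of which 0.0225% passed), and 1 had an unadjusted p under 0.05. That member was Asns, with −0.27 in IP and 0.13 in INPUT, a difference of −0.40 (95% interval −0.70 to −0.10, unadjusted p = 0.011, adjusted p = 0.87 from limma). For the other 7 the difference between the fractions lay between −0.25 and 0.12.

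By fraction, the serine enzymes and Asns lay at opposite ends. Of the 8 other members tested in naïve mice, 5 were higher in IP than in INPUT and 3 were lower (limma, adjusted p under 0.05), where 23.7% of 13339 genes were higher and 64% lower. In stressed mice the counts were again 5 and 3, where 23.6% of 13333 genes were higher and 62.5% were lower. The median of all genes was −0.64 in naïve and −0.63 in stressed mice, so a value of 0 on this scale lies above the middle of the genes. Values are shares of each library, and the median moves to −0.0026 in naïve mice when libraries are rescaled by their median ratio. After that rescaling 5589 genes were higher and 5642 lower in naïve IP, in place of 3158 and 8540, and of the members only Ddit3 changed side. In stressed mice 7 members passed after that rescaling or quantile normalization, since Ddit3 was lost.

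Among the members, the serine synthesis genes had the highest ratios of IP over INPUT. Phgdh was 9.23 times as high in naïve IP (94.5 ± 8.28 CPM) as in naïve INPUT (10.2 ± 0.71 CPM, SD, n = 4 each), a log2 ratio of 3.19 (95% interval 3.01 to 3.37). It ranked 183 of 13339 genes, with 96 for Aldh1l1, a cytosolic folate enzyme whose promoter drives Cre here. Psat1 followed with 591 ± 19.8 against 90.3 ± 2.37 CPM, a log2 ratio of 2.71 (95% interval 2.61 to 2.81). Psph had a log2 ratio of 2.03 (95% interval 1.84 to 2.23) and Shmt2 of 1.72 (95% interval 1.54 to 1.89). In all 4 enzymes the lowest IP library was above the highest INPUT library, and after stress the log2 ratios were 3.28, 2.80, 2.15 and 1.57 in the same order.

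Asns was the opposite case. It had 5.15 to 6.82 CPM in naïve IP against 91.6 to 113 CPM in naïve INPUT, a log2 ratio of −4.00 (95% interval −4.22 to −3.78). After stress the log2 ratio was −4.40 (95% interval −4.62 to −4.19). The neuronal markers were also low in IP, with a mean sum of 497 CPM in naïve IP against 10318 CPM in naïve INPUT, and the share of the Asns reads in IP that came from other cells was not tested.

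Among the regulators, Atf5 was higher in IP, at 16.3 ± 2.65 against 8.83 ± 1.40 CPM in naïve mice, a log2 ratio of 0.88 (95% interval 0.57 to 1.19), and at 0.63 after stress. Atf4 was lower in IP, at 55.1 ± 6.78 against 116 ± 7.59 CPM in naïve mice, a log2 ratio of −1.08 (95% interval −1.26 to −0.89), and at −1.19 after stress. Ddit3 had a log2 ratio of −0.37 in naïve and −0.49 in stressed mice (limma, adjusted p = 0.0030 and 0.0017), a smaller deficit than that of the median gene. The sign of Ddit3 turned when libraries were rescaled, to 0.26 by the median ratio and 0.27 by quantile normalization in naïve mice and to 0.13 and 0.17 in stressed mice, where its call was also lost (limma, adjusted p = 0.26 and 0.15). Mthfd2 moved from a log2 ratio of −0.62 in naïve mice, close to the median of all genes, to 0.63 in stressed mice, as a description, but by quantile normalization it was above 0 in both, at 0.40 and 1.51. Trib3 had 0 or 1 read in each IP library, so no ratio is given.

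**Figure D3:**
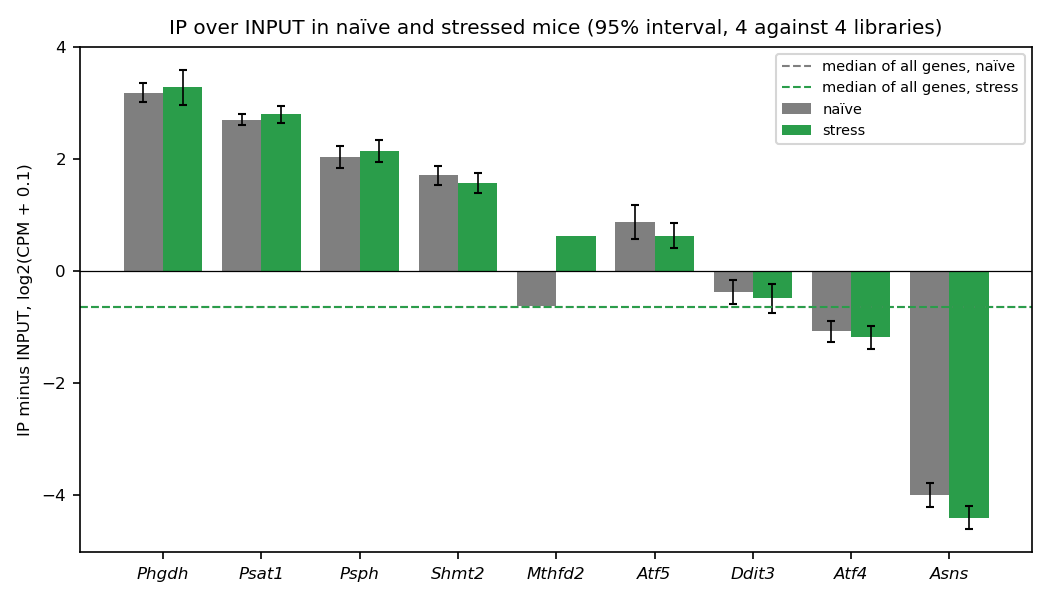
Bars give the IP minus INPUT difference on the log2(CPM + 0.1) scale in naïve (grey) and stressed (green) mice, with 95% intervals for the tested genes (4 against 4 libraries), and the dashed lines, which lie on each other, mark the median of all genes. Phgdh, Psat1, Psph and Shmt2 stand at 1.57 to 3.28, Asns at −4.00 and −4.40, and Mthfd2 is the gene whose bar changes sign between naïve and stressed mice, which it does not by quantile normalization (0.40 in naïve mice).

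Genes were ordered by their level per length, as CPM divided by the exon length in kilobases (FPKM). The lengths are of GENCODE M21 exons, whereas reads were counted on RefSeq genes, so the order can depend on the length used. By mean CPM, Psph (43.5) was above Shmt2 (40.8) in naïve IP. In naïve IP the order was led by Psat1 at 139 ± 4.65 FPKM (SD, n = 4) and Phgdh at 38.0 ± 3.33 FPKM. Atf4 had 23.4 ± 2.87 FPKM, Shmt2 13.1 ± 0.89, Psph 10.0 ± 0.47, Atf5 8.20 ± 1.33 and Ddit3 7.85 ± 1.00 FPKM. Atf5 and Ddit3 did not differ beyond their spread. Below them came Asns at 2.22 ± 0.27 FPKM, Mthfd2 at 0.64 ± 0.28 FPKM and Trib3 at 0.011 FPKM. In stress IP, Mthfd2 at 1.91 ± 0.36 FPKM was within the spread of Asns at 1.83 ± 0.22 FPKM, and it remained far below Shmt2 at 12.5 ± 0.78 FPKM. In naïve INPUT the order was led by Atf4 at 49.1 ± 3.22 FPKM and Asns at 36.0 ± 3.58 FPKM, with Psat1 at 21.2 ± 0.56 FPKM. There Atf5 (4.43 ± 0.70), Phgdh (4.12 ± 0.29) and Shmt2 (3.97 ± 0.22 FPKM) did not differ beyond their spread.

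The wider pathway was read from 9 lists with 134 genes, of which 133 were found, 10 of them the members. In IP, 113 of the other 123 genes were tested and 1 passed, Mat2a, which was higher after stress (limma, adjusted p = 0.017), beside the 0.44% of all genes that passed. At an unadjusted p under 0.05, 7 of the 113 were higher and 3 lower, beside 431 higher and 603 lower of all 12501 genes. The median difference of the 113 was 0.02, with −0.00 for all genes tested. In INPUT, 0 of 115 tested passed, with 4 higher and 3 lower at an unadjusted p under 0.05, beside 355 and 328 of all 13577 genes. The lowest adjusted p of the 115 was 0.12 from limma. Gpt2, of the ATF4-linked amino acid list, had 66.5 to 79.5 CPM in naïve INPUT and 87.5 to 99.8 CPM in stress INPUT. Its groups did not overlap, as in 2.87% of all genes tested in INPUT. In the comparison of the 2 stress differences 0 of 115 passed, with 4 above 0 and 0 below at an unadjusted p under 0.05, beside 253 and 376 of all 13341 genes.

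Mat2a encodes the enzyme that makes S-adenosylmethionine, the methyl donor that one-carbon units help to regenerate. It had 99.9, 96.2, 115 and 102 CPM in naïve IP (replicates 2, 8, 11 and 13) and 164, 168, 155 and 129 CPM in stress IP (replicates 4, 5, 6 and 15). All stress values were above all naïve values, and replicate 11 was again the highest naïve library. Mat2a rose by 0.57 on the log2 scale (standard error 0.09), or 1.49-fold. The call was lost in 6 of the 8 fits that left out 1 library (adjusted p of 0.060 to 0.088 in those 6) and in the fit without a variance trend (adjusted p = 0.10 from limma), and it held without naïve replicate 11 or without stress replicate 15. In INPUT the difference was 0.11 (adjusted p = 0.99 from limma).

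Within the mitochondrial one-carbon list, the genes nearest to Mthfd2 in function did not pass the test. Mthfd2l, a paralogue that carries out the same reaction, had 4.11 to 7.13 CPM in naïve IP and 6.36 to 7.58 CPM in stress IP, a difference of 0.31 (95% interval −0.04 to 0.66, adjusted p = 0.67 from limma). Of the 8 genes of this list other than Mthfd2, 0 had an unadjusted p under 0.05 in IP (limma), and the lowest difference was that of the carrier gene Sfxn3, at −0.14. In the list of serine synthesis and glycine cleavage, 0 of 8 passed (0 at an unadjusted p under 0.05 in limma) and the differences lay between −0.02 (Phgdh) and 0.17 (Gcsh, a glycine cleavage subunit). Among the 20 cytosolic folate, methionine and nucleotide genes tested, Mat2a passed, and the next highest was Mtrr at 0.18 and the lowest Cbs and Slc19a1 at −0.20.

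In the list of ATF4-linked amino acid enzymes and transporters, 15 of the 17 were tested in IP and 0 passed (1, higher, at an unadjusted p under 0.05). The median was 0.08, and the differences ran from −0.27 (Asns) to 0.21 (the large neutral amino acid transporter Slc7a5). None of the 21 genes of the aminoacyl-tRNA synthetase list passed, with differences from −0.10 (Vars) to 0.13 (Lars) and 0 at an unadjusted p under 0.05 in limma. None of the 12 genes for eIF2, its kinases and its exchange factor eIF2B passed (0 at an unadjusted p under 0.05), with differences from −0.10 to 0.14. In the list of stress-response factors and feedback genes, 0 of 15 passed, and 5 were higher and 2 lower at an unadjusted p under 0.05, beside the 431 and 603 of all 12501 genes given above. The highest were Cebpb, a C/EBP factor, at 1.19 (adjusted p = 0.13 from limma) and Herpud1, which takes part in degradation of endoplasmic reticulum proteins, at 0.64 (adjusted p = 0.086 from limma). The others of the 5 were Ddit4 at 0.52, Sesn2 at 0.23 and Jdp2 at 0.19. In all 5 the stress values lay above the naïve values, whereas the groups of the 2 lower genes overlapped. Among all genes tested in IP, 5% had groups that did not overlap.

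Cebpb had 0.896 to 1.92 CPM in naïve IP and 2.12 to 4.28 CPM in stress IP, and Herpud1 had 31.5 to 51.6 CPM in naïve IP and 52.3 to 63.4 CPM in stress IP. In neither gene did the groups overlap, and naïve replicate 11 was the highest naïve library in both. Without replicate 11 the differences were 1.39 for Cebpb and 0.80 for Herpud1. Both passed in that fit, while the count over all genes went from 55 to 122. Replicate 11 was singled out on the values of these same genes, so leaving it out widens their differences, and no conclusion is drawn from that fit. Each passed in only 1 of the 8 fits that left out 1 library. Over those 8 fits the adjusted p from limma reached 0.39 for Cebpb and 0.32 for Herpud1. Ddit4, an inhibitor of the growth kinase mTORC1 that ATF4 and glucocorticoids can both induce, had a difference of 0.52 in IP (adjusted p = 0.24 from limma) and 0.63 in INPUT (adjusted p = 0.64 from limma). None of the 15 genes of the other branches of the unfolded protein response and none of the 7 genes of its mitochondrial counterpart passed (1, lower, and 0 at an unadjusted p under 0.05), with differences of −0.20 to 0.20 and −0.01 to 0.12.

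**Figure D4:**
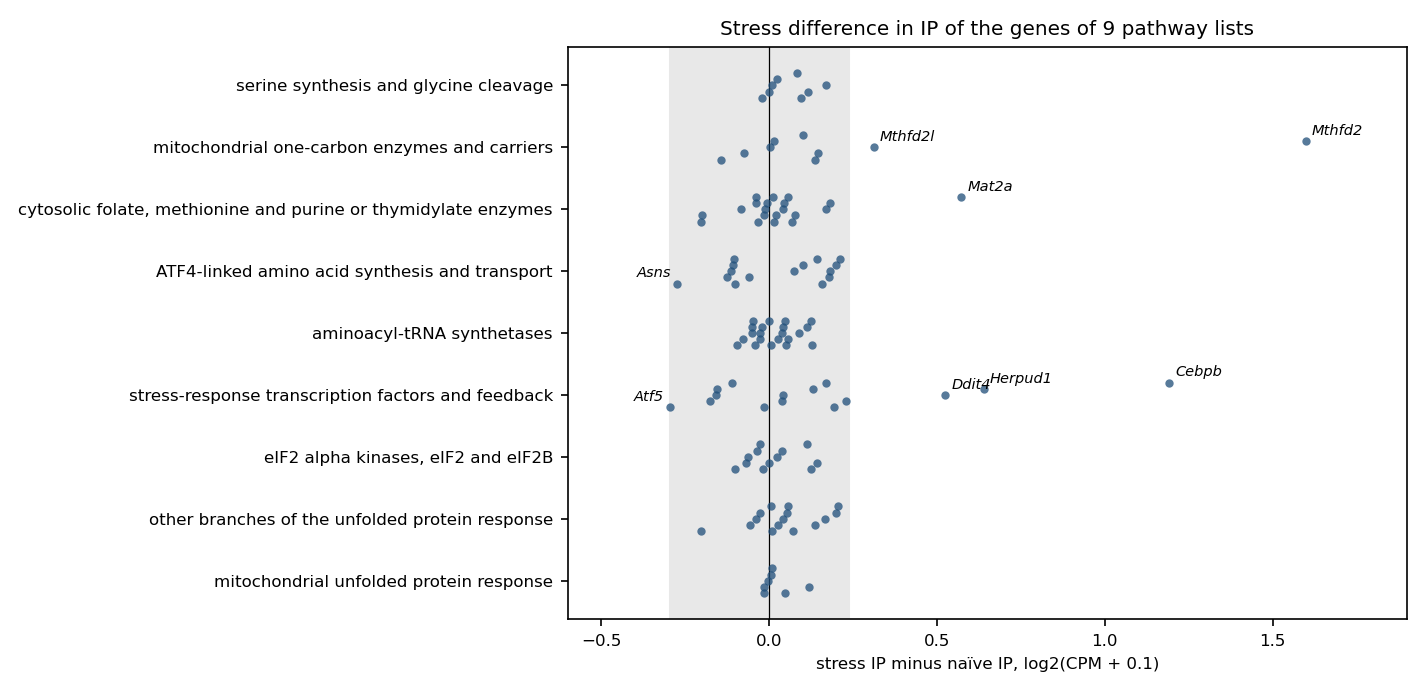
Each point is the stress IP minus naïve IP difference of 1 tested gene on the log2(CPM + 0.1) scale, in rows by list (points are staggered vertically for legibility), and the grey band holds 90% of all genes tested. Mthfd2 at 1.60, Cebpb at 1.19, Herpud1 at 0.64, Mat2a at 0.57, Ddit4 at 0.52 and Mthfd2l at 0.31 lie above the band, and the rest of the lists lie in it or at its lower edge.

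The stress differences of the genes with the promoter core were on both sides of 0. Of the 20 pathway genes with TGATGNAA in the window, members included, 15 were tested in IP and 0 passed, with 6 differences above 0 and 9 below. They ran from −0.27 (Asns) through a median of −0.04 to 0.64 (Herpud1), and Slc7a11, whose window is printed above, had 0.08. Mthfd2, whose window lacks the core, is outside this set.

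The genes whose levels followed Mthfd2 most closely were not on the lists. Over all 16 libraries the highest Pearson correlations with Mthfd2 on log2(CPM + 0.1) were those of Arl4d (0.93), Cdkn1a (0.90), Irs2 (0.89), Txnip (0.88) and Spsb1 (0.88), of 13340 genes. Over the 8 IP libraries they were Arl4d and Nfkbia (0.99 each), Irs2 (0.99), Arrdc2 (0.98) and Errfi1 (0.97), and 63 of 12500 genes reached 0.9. Over the same 8 libraries the tested members ran from −0.66 for Asns to 0.63 for Psph. These are descriptions, since the libraries share their treatment groups and their scaling, and any gene that differs with stress takes part of its correlation from the groups.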

How the data were processed

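The study sequenced RNA of the IP and, as INPUT, of 20% of the lysate, and its methods describe each animal's tissue as homogenised on its own. The authors mapped the reads to mm10 (STAR), counted uniquely mapped reads on RefSeq genes (HTSeq) and deposited log2 CPM values scaled to each library's total, with no length correction. The submitters' notes also name edgeR and limma. The values gave whole reads for 100% of genes. Limits of detection cover counting error only, since reads after PCR are not independent molecules.

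limma 3.58.1 (R 4.3.3, lmFit and eBayes with a variance trend) was run on log2(CPM + 0.1), a scale that understates changes of low genes. Genes needed a mean over 1 CPM among the libraries of a comparison, and a Benjamini-Hochberg adjusted p under 0.05 was called. The fit was checked on simulated data. Exon lengths came from GENCODE M21, and plots from Python 3.11.15 with matplotlib 3.10.9.

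The members and lists were chosen with earlier results of these data known. Beyond the members, the genes named were those of a list past the threshold, its 2 highest and 2 lowest by stress difference in IP or by naïve IP over INPUT, and the 5 closest correlates of Mthfd2. Sesn2 and Jdp2 were named in addition because their IP groups did not overlap. Alternatives were other pseudocounts, filters and scalings, limma-voom on recovered reads, array weights, no variance trend, 1 model for all libraries, and each library left out.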

Additional observations from a re-analysis of the deposited data

How the results depend on the processing

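No paired analysis was possible because each library has its own number and the labels do not tie IP to INPUT. The count of members that passed a test of stress, or of the difference between the stress effects, was 0 under every alternative run and with any library left out. Of 610 results under other settings 592 were classed as unchanged, as were 514 of 544 with 1 library left out. A tested difference was unchanged if it kept its direction and side of the threshold. Counts were allowed to differ slightly. A Mthfd2 difference given as a description had to keep its direction and move by less than the SD between libraries. Depth limits Trib3 most, and Mthfd2 could not be fitted with a filter at a mean of 5 CPM, except between the fractions of stressed mice, nor with one at a mean of 1 FPKM between those of naïve mice. The causes of the changes below were not tested.

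The count of pathway genes other than Mthfd2 that passed in IP was 1, but 0 without a variance trend, 3 with array weights (Mat2a, Herpud1 and Cebpb), 3 with all 16 libraries in 1 model, and 0 to 3 with 1 library left out, the 3 being without naïve replicate 11. Over all genes the counts in those 4 fits were 19, 143, 124 and 122, in place of 55. In INPUT it was 0, but 1 with array weights and 0 to 1 with 1 library left out, the gene without naïve replicate 14 being Gpt2. For the difference between the stress effects it was 0, and 0 to 1 with 1 library left out, the gene without naïve replicate 11 being Herpud1. Mthfd2 in IP stayed at 1.27 to 1.77 over the other settings.

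Naïve IP over INPUT turned for Mthfd2, from −0.62 to 0.40 by quantile normalization (−0.0033 by the median ratio). Ddit3 turned to 0.26 (median ratio) and 0.27 (quantile) in naïve and to 0.13 and 0.17 in stressed mice, and the ratio of Mthfd2 in stressed mice was 1.25 and 1.51. Psat1 in IP was −0.0047 by quantile normalization. With 1 library left out, differences near 0 changed sign: −0.076 to 0.091 for Phgdh, −0.051 to 0.030 for Psat1 and −0.041 to 0.12 for Atf4 in IP, −0.099 to 0.045 for Psph and −0.16 to 0.015 for Atf5 in INPUT, and −0.019 to 0.20 for Phgdh between the fractions.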

Other observations

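Other steps of glycine, methyl and cysteine metabolism also differed between fractions in naïve mice. Gldc, the glycine-cleaving decarboxylase, had 308 to 350 CPM in naïve IP and 21.6 to 26.1 CPM in naïve INPUT, a log2 ratio of 3.79, the highest of the list of serine synthesis and glycine cleavage. Cbs, which joins homocysteine and serine, had a log2 ratio of 3.76, and Cth, the next enzyme towards cysteine, had 2.81. In contrast Mthfd1l, which releases formate in mitochondria, had 2.28 to 5.37 CPM in naïve IP and 14.9 to 22.6 CPM in naïve INPUT, a log2 ratio of −2.39. Of the 8 mitochondrial one-carbon genes other than Mthfd2, 3 were higher and 5 lower in naïve IP (3 and 2 after rescaling by the median ratio or by quantile normalization). Of the 8 genes of serine synthesis and glycine cleavage 7 were higher and 1, the serine racemase gene Srr, was lower under all 3 scalings (limma, adjusted p under 0.05), where 23.7% of all genes were higher and 64% lower before rescaling.

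Among the aminoacyl-tRNA synthetases the log2 ratios of naïve IP over INPUT ran from −1.64 (Gars) to 1.15 (Dars). Among the stress-response factors the lowest were Ndrg1 at −3.73 and Chac1 at −3.42, and the highest Nupr1 at 2.04.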
